A study of Mus musculus with 2 samples.

Results

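A group of 37 genes of epidermal cell junctions and of the cornified envelope were followed in RNA from BALB/c mouse dermis, by looking up their symbols in the deposited gene tables of a library of cultured fibroblasts and a library of cultured skin-derived precursors (SKPs). Of the 37 genes, 36 had at least 1 read in either library, out of 17431 such genes in all. All 36 had reads in the SKP library and 28 had reads in the fibroblast library. Of all 17431 genes, 16727 had SKP reads and 16282 had fibroblast reads. Flg, which encodes filaggrin, the protein that bundles keratin filaments in the outermost living layer, had no entry for either library. Here and below, a gene without an entry for a library was taken as having no reads there. The labels do not say whether the annotation used held Flg or other genes without an entry. The fibroblasts came from mice at postnatal day 3 and were kept in DMEM plus 10% fetal bovine serum. The SKPs, progenitors isolated from dermis, came from mice at postnatal day 4 and were kept in DMEM/F12 (3:1) to which FGF2 (40 ng/ml), EGF (20 ng/ml) and B27 (2%) were added. The labels give no number of animals or passages. There was 1 library per cell type, so every difference below is between these 2 libraries, with no replicate check, and cell type, medium and age cannot be told apart. Intervals in parentheses are 95% exact counting intervals and cover counting error only.

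The epidermis is a stratified epithelium whose keratinocytes hold together through desmosomes, junctions in which cadherins of the desmoglein and desmocollin families are linked by plakoglobin, plakophilins and desmoplakin to keratin filaments. As keratinocytes leave the basal layer they build the cornified envelope, a sheath of loricrin, involucrin, small proline-rich proteins, envoplakin and periplakin that transglutaminases crosslink under the cell membrane. The transcription factor p63 is needed to form this epithelium, and grainyhead-like, OVOL and ETS factors act in its later differentiation. Dermal fibroblasts are mesenchymal and do not build either structure, although plakoglobin and several plakophilins also occur at junctions of non-epithelial cells.

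Promoter sequences from RefSeq (GRCm38.p6) were found for 20 of the 37 genes. They are shown because the searched motifs were found mostly upstream of the envelope and differentiation genes. None of the desmosomal cadherins had a sequence. The 150 bases before the annotated start of 6 envelope and differentiation genes, and of the junction gene Jup for comparison, read as follows on the strand of the gene, with capitals where a searched motif matched. The build differs from mm9, which the deposited tables used, so the coordinates belong to the promoter sequences only.
Ivl, chr3:92573736-92573885, minus strand: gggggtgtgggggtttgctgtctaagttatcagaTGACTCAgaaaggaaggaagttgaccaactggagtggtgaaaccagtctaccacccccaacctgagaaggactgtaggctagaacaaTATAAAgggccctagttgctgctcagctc
Lor, chr3:92083143-92083292, minus strand: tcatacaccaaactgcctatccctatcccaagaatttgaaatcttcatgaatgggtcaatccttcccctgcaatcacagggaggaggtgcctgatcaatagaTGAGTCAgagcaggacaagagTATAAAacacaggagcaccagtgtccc
Sprr1a, chr3:92485882-92486031, minus strand: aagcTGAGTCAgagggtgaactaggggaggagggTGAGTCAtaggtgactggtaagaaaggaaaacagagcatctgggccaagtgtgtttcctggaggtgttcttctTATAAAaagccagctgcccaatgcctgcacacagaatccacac
Sprr1b, chr3:92438780-92438929, minus strand: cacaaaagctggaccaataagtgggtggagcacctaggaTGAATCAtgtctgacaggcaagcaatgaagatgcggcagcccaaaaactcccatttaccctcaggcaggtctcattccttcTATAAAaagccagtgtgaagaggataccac
Flg, chr3:93273396-93273545, plus strand: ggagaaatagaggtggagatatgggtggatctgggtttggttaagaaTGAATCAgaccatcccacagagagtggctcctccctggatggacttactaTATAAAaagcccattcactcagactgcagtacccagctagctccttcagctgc
Krtdap, chr7:30787755-30787904, plus strand: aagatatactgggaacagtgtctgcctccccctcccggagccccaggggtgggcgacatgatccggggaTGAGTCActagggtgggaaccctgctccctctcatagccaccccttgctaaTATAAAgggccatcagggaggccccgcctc
Jup, chr11:100397791-100397940, minus strand: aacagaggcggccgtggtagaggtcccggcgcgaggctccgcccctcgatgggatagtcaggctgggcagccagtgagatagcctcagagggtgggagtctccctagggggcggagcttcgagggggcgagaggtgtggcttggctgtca
The motifs searched on both strands of the 250 bases before the start were TGANTCA, the site of AP-1 factors, TATAAA, the TATA box, AACCNGTT, a site of grainyhead factors, and a core of p53 family sites made of a pair of CATG blocks. No match of 1 motif overlapped a match of another in the promoters of these genes. Both TGANTCA and TATAAA were present for 6 of the 9 envelope, crosslinking and differentiation genes with a sequence, namely Flg, Ivl, Krtdap, Lor, Sprr1a and Sprr1b. None of the 8 junction genes and none of the 3 regulators held both. Over all 32851 promoters of the table, 6.75% held TGANTCA, 12.4% held TATAAA and 1.21% held both. The TATAAA match began 27 bases before the start in Lor, 29 in Ivl, 30 in Sprr1b and Krtdap, 43 in Sprr1a and 53 in Flg. The Cldn4 promoter held 2 TGANTCA matches farther upstream, and the Tgm3 promoter held TATAAA without TGANTCA. AACCNGTT was found in 1 promoter, that of Sfn, against 1.79% of all promoters, and the p53 family core in none, against 0.49%. Such matches describe the letters of the window and show no binding.

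Most of these genes were present at low levels, and more of their RNA was in the SKP library. RPKM, the reads per kilobase of gene length and per 1000000 counted reads, reached at least 1 for 15 of the 36 genes in the SKP library and for 6 in the fibroblast library, while 67.3% and 65% of all genes with a read did so. No gene of the group reached an RPKM of 20 in either library. Relative to the fibroblast library the SKP library had the higher RPKM for 29 of the 36 genes, against 49.4% of all genes. A gene was called expressed at an RPKM of at least 1 with at least 20 reads in either library, and called higher or lower if the libraries differed 2-fold or more and the counting interval did not include equality. Of the 16 expressed genes, the SKP library had the higher level for 13 (background 12.1% of 12053 expressed genes), the fibroblast library for 1 (background 6.41%), and 2 were not called. Of these 16 genes 10 met the filter in the SKP library only and so had to be higher there. Pkp2, the 1 called toward the fibroblast library, met it in that library only, which fixed its direction too. The filtered counts are given as a description. With the filter set on the mean RPKM of both libraries, 11 were higher (10.8% of all) and 1 was lower (5.84% of all). With no filter, 23 of 36 were higher in the SKP library, against 12.6% of 17431 genes, and 1 was lower, against 6.22%. The median log2 ratio of SKP over fibroblast was 1.99 over the 34 genes with a ratio, with 0 reads set to a floor of 3, and 0.01 over all genes. In the authors' deposited table, 22 of the 36 genes were at least 2-fold higher in SKPs at an FDR of at most 0.001, against 10.5% of all 17431 genes, and 1 was higher in fibroblasts, against 4.8%. That test used the same 2 libraries and compares those libraries, not the cell types. Fibroblast reads were 0 for 8 of the 36 genes (22.2%), namely Ivl, Sprr1b, Dsg1a, Dsc1, Ocln, Grhl3, Elf3 and Ehf, against 6.59% of all genes. No gene of the group lacked SKP reads, and only 4.04% of all genes did.

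**Figure D1:**
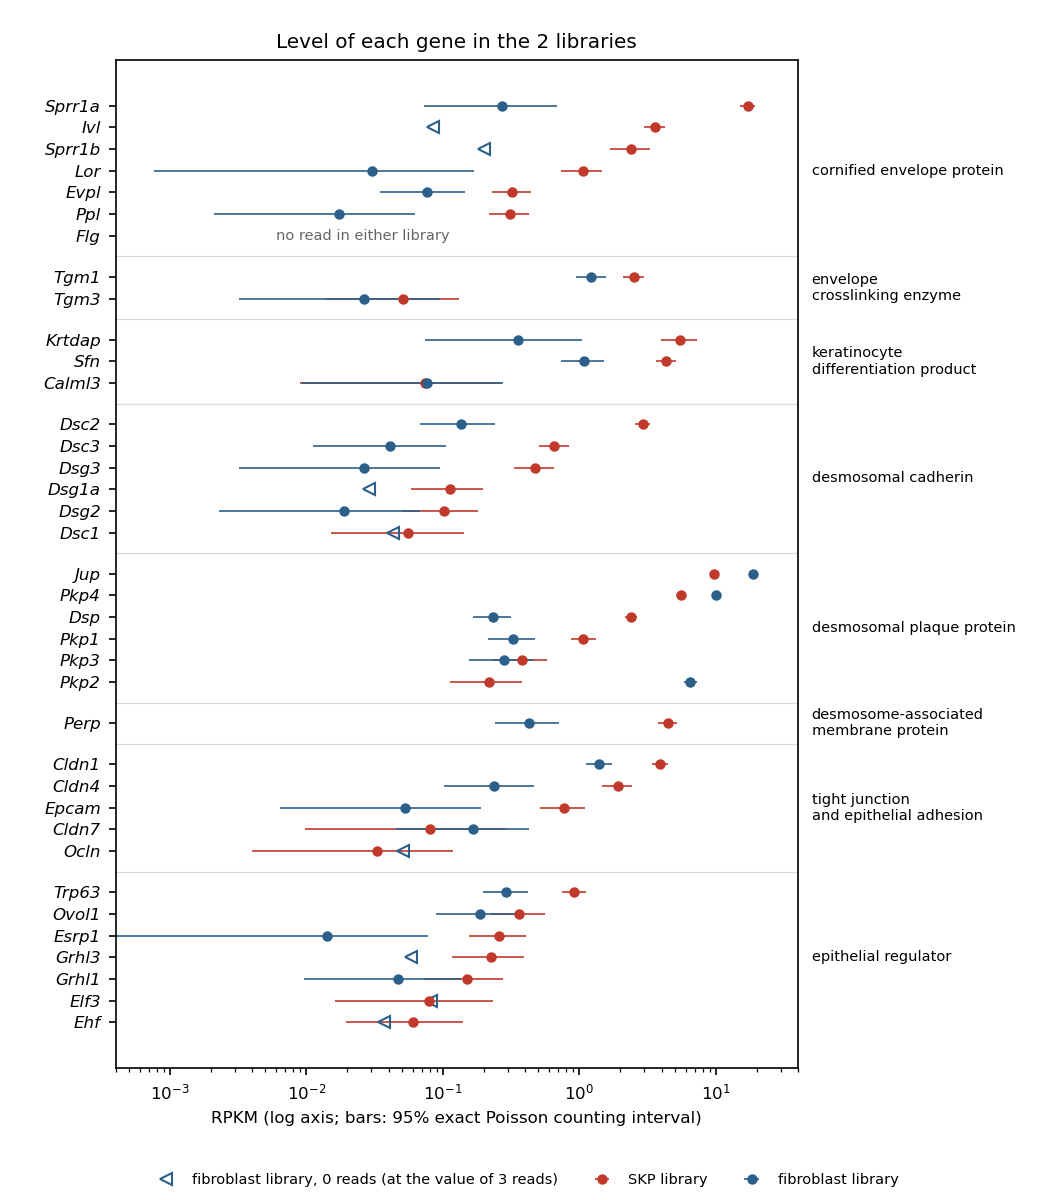
RPKM of each of the 37 genes (log axis) in the SKP library (red) and the fibroblast library (blue), grouped by role; bars are 95% exact Poisson counting intervals and open triangles mark 0 fibroblast reads, drawn at the value of 3 reads (the bar of Esrp1 runs past the left edge). Envelope proteins and desmosomal cadherins lie farther right in red, whereas Jup, Pkp4 and Pkp2 lie farther right in blue.

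All 6 cornified envelope protein genes with reads had the higher level in the SKP library, most of them by more than 10-fold. Sprr1a (gene ID 20753), a small proline-rich envelope precursor, stood at 17.1 RPKM in the SKP library (15.1 to 19.3) and at 0.269 in the fibroblast library, from 262 reads and 4 reads. The SKP level was 63.6 times the fibroblast level (24.6 to 235), and it had the highest SKP level of the 37 genes. Ivl (16447), which encodes involucrin, an early envelope scaffold, had 130 SKP reads (3.57 RPKM) and 0 fibroblast reads. With the fibroblast count set to 3 reads, the ratio of Ivl was 42.1, and the exact lower limit was 33.7. Sprr1b (20754), the close relative of Sprr1a, had 37 reads (2.38 RPKM) against 0, a ratio of 11.98 by the same floor (exact lower limit 9.27). Lor (16939), which encodes loricrin, the main late envelope protein, stood at 1.06 RPKM against 0.0302, from 36 reads against 1, a ratio of 34.97 (5.89 to 1419). The SKP levels of Ivl and Sprr1b had overlapping counting intervals, and both lay above the interval of Lor. The plakin genes Ppl and Evpl, whose proteins tie the envelope to desmosomes and keratin, were below the expression filter in both libraries. Ppl had 37 SKP reads against 2 (0.311 RPKM against 0.0173) and Evpl 39 against 9 (0.322 against 0.0764, 4.21-fold, 2.01 to 9.88). Of these 6 genes 0 reached an RPKM of 1 in the fibroblast library.

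The crosslinking enzymes differed less. Tgm1 (21816), the membrane-bound transglutaminase of the envelope, stood at 2.50 RPKM in the SKP library (2.09 to 2.95) and 1.22 in the fibroblast library (0.938 to 1.56), which was 2.05-fold (1.51 to 2.80). Tgm3, a transglutaminase of late keratinocytes and hair, had 4 reads against 2, and its interval of 0.278 to 21.5 allowed either direction. Among secreted or cytoplasmic products of differentiating keratinocytes, Krtdap (64661), a small secreted protein, stood at 5.44 RPKM from 47 SKP reads and at 0.357 from 3 fibroblast reads, a ratio of 15.2 (4.90 to 76.4). Sfn (55948), the 14-3-3 sigma protein of epithelial cells, stood at 4.34 RPKM (3.64 to 5.15) against 1.08 (0.736 to 1.52), an SKP excess of 4.04-fold (2.73 to 6.14). Of the 49-base windows of the Sfn reference transcript, 15.5% also occur in transcripts of other genes, among them Ywhaq-ps1, so its count is uncertain. Calml3, a calmodulin-like protein of epithelia, had 2 reads in each library. The values of Tgm1 and Sfn were above 1 RPKM in both libraries, unlike those of the envelope proteins, but their fibroblast intervals included 1.

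**Figure D2:**
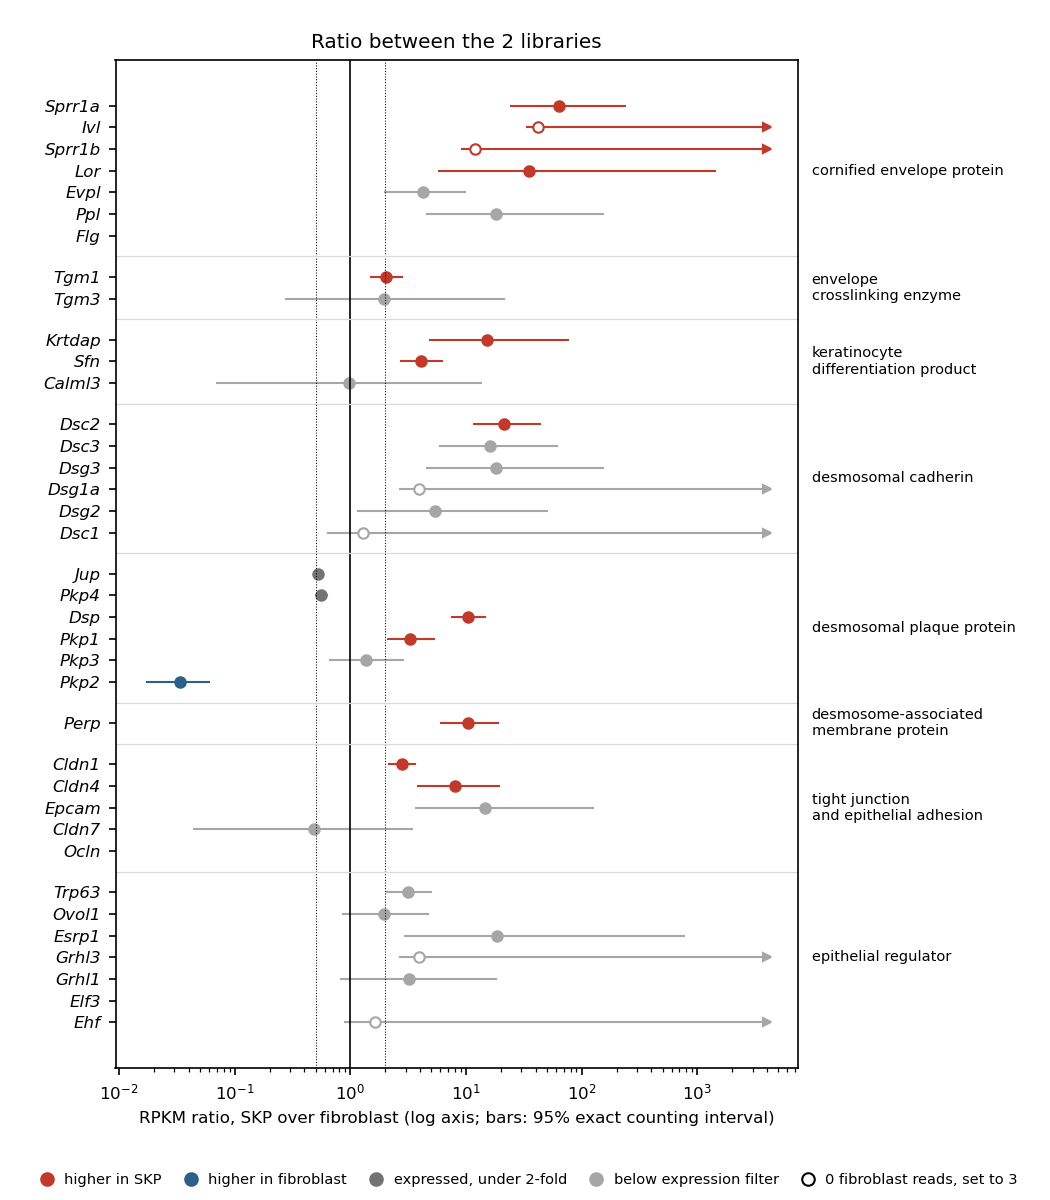
RPKM ratio of SKP over fibroblast for each gene (log axis) with its 95% exact counting interval, in red where higher in SKP, blue where higher in fibroblasts, dark grey where expressed and under 2-fold, and light grey below the expression filter; dotted lines mark 2-fold, open circles a fibroblast count of 0 set to 3 reads, and arrows intervals without an upper limit. Flg, Ocln and Elf3 have no ratio, Pkp2 lies at the far left, and Sprr1a, Ivl and Lor lie farthest right.

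Desmosomal cadherins, the transmembrane proteins of the desmosome, all had more reads in the SKP library, at low levels. Dsc2 (13506), the desmocollin that simple epithelia and heart also use, was the only expressed member, at 2.90 RPKM (2.55 to 3.29) against 0.135 (0.0676 to 0.242), a 21.5-fold difference (11.8 to 43.6). Dsc3, a desmocollin of the basal layers, had 66 SKP reads against 4 (0.657 RPKM against 0.041, a 16.0-fold difference, 5.97 to 60.6). Dsg3, the desmoglein of the deep epidermis and target of pemphigus vulgaris antibodies, had 37 reads against 2 (0.475 RPKM against 0.0265). Dsg2, the most widely expressed desmoglein, had 11 reads against 2. Dsg1a, a desmoglein of the upper epidermis, had 12 SKP reads and 0 fibroblast reads, a ratio of 3.89 by the floor of 3 reads (exact lower limit 2.70). Its transcript shares 35.3% of its 49-base windows with other genes, Dsg1b and Dsg1c among them, so the split between these copies is uncertain. Dsc1, the desmocollin of the upper layers, had 4 SKP reads against 0, too few for a direction. In the SKP library the levels of Dsg3 and Dsc3 had overlapping intervals, as did those of Dsg1a, Dsg2 and Dsc1, while Dsc2 lay above all of them.

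The plaque proteins were split in direction. Dsp (109620), desmoplakin, which anchors keratin filaments, stood at 2.40 RPKM (2.18 to 2.63) in the SKP library and at 0.232 (0.167 to 0.315) in the fibroblast library, a 10.3-fold difference (7.49 to 14.6). Pkp1 (18772), the plakophilin of the suprabasal epidermis, stood at 1.07 RPKM in the SKP library and 0.327 in the fibroblast library, a 3.27-fold difference (2.11 to 5.23). Pkp3, found in most epithelial layers, had 21 reads against 15 and an interval that included equality (0.668 to 2.84). Pkp2 (67451), the plakophilin of simple epithelia and of heart muscle junctions, went the other way: it stood at 0.219 RPKM from 12 SKP reads and at 6.50 RPKM from 346 fibroblast reads. The fibroblast level of Pkp2 was 29.7 times its SKP level (16.8 to 58.0), and Pkp2 was the 1 expressed gene of the group called in that direction. Jup (16480), plakoglobin, which also links classical cadherins to actin in adherens junctions, stood at 9.78 RPKM (9.16 to 10.4) against 18.8 (17.9 to 19.7), 1.92-fold higher in the fibroblast library (1.77 to 2.09). Pkp4 (227937), a p120-related plakophilin of adherens junctions, stood at 5.57 RPKM (5.09 to 6.09) against 9.97 (9.31 to 10.7), 1.79-fold higher in the fibroblast library (1.60 to 2.00). The intervals of Jup and Pkp4 excluded equality but both ratios were under 2-fold. These 2 genes were the most abundant of the 37 in the fibroblast library.

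Because Jup, Pkp4 and Pkp2 held most of the fibroblast reads, the total over the group hid the difference of the other genes. All 37 genes together took 205 of every 1000000 counted reads in the SKP library (198 to 211) and 180 in the fibroblast library (174 to 186). Without these 3 genes, which were singled out after their values were seen, the rest took 129 (124 to 134) and 20.5 (18.5 to 22.7). Perp (64058), a tetraspan membrane protein of desmosomes and a p63 target, stood at 4.44 RPKM (3.78 to 5.19) against 0.429 (0.240 to 0.707), an SKP excess of 10.4-fold (6.10 to 18.9). Perp, Sfn and Cldn1 could not be ordered by SKP level beyond counting error.

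Tight junction and epithelial adhesion genes were uneven. Cldn1 (12737), the claudin needed for the epidermal water barrier, stood at 3.91 RPKM (3.44 to 4.44) against 1.40 (1.12 to 1.73), 2.80-fold higher in the SKP library (2.17 to 3.63). Cldn4 (12740), a claudin of the granular layer, stood at 1.91 RPKM against 0.238 from 66 reads and 8 reads, 8.01-fold (3.84 to 19.3). Epcam, an adhesion protein of simple epithelia and of hair follicle and Langerhans cells, had 30 reads against 2 (0.768 RPKM against 0.0527). Ocln, occludin, had 2 reads against 0, and Cldn7 had 2 against 4, so neither was measurable at this depth. The upstream regulators were all below an RPKM of 1. Trp63 (22061), the gene of p63, was the most abundant of them at 0.922 RPKM (0.745 to 1.13) against 0.293 (0.196 to 0.420), from 94 reads and 29 reads, a ratio of 3.15 (2.06 to 4.95). Esrp1, an epithelial splicing regulator, had 19 reads against 1. Grhl3, a grainyhead factor of barrier formation, had 12 against 0, a ratio of 3.89 by the floor of 3 reads (exact lower limit 2.70). Ovol1, a zinc finger repressor of differentiating keratinocytes, had 20 against 10, and Grhl1, a grainyhead regulator of desmosomal cadherins, had 10 against 3, with intervals that included equality. The epithelial ETS factor genes Ehf and Elf3 had 5 and 3 SKP reads and 0 fibroblast reads. Of these 7 regulators 0 were expressed by the filter, and with no filter Trp63, Grhl3 and Esrp1 were higher in the SKP library.

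The basal keratins give the scale of these ratios. Krt14 and Krt5, the keratin pair of the basal epidermis, stood at 13.4 and 9.13 RPKM in the SKP library against 0.970 and 0.843, with ratios of 13.8 (9.50 to 20.7) and 10.8 (7.61 to 15.9). The counting intervals of 23 genes of the group overlapped that of Krt14. Those of Ivl and Sprr1a lay above it. Those of 11 lay below it: Tgm1, Sfn, Pkp1, Cldn1, Trp63, Ovol1, Pkp3 and Cldn7, and the 3 plaque genes Jup, Pkp4 and Pkp2. The 23 include genes of few reads whose intervals span a wide range, such as Tgm3 and Calml3. The same comparison was not made over all genes, so these counts only describe the group beside Krt14. Of 14 epidermal keratins 12 had a read, and 8 of these were higher in the SKP library with no filter (background 12.6%). Krt2 and Krt15 had no read in either library, and Krt75 had 0 SKP reads. Of the 7 expressed, 6 were higher, all of which met the filter in the SKP library only, and Krt80 was neither. Krt16 and Krt6a, keratins of activated and follicular keratinocytes, stood at 3.21 RPKM against 0.0344 (96 reads against 1) and 5.81 against 0.214, and Krt17 stood at 10.1 against 0.887. Krt1, the keratin of the suprabasal layers, had 13 reads against 0. All 7 genes fixed as keratinocyte markers (Krt5, Krt14, Krt1, Krt10, Trp63, Lor and Ivl) had reads in the SKP library, and Krt1 and Ivl had 0 in the fibroblast library. Of all genes, 4.04% lacked SKP reads and 6.59% lacked fibroblast reads. Of these 7 markers, Trp63, Lor and Ivl belong to the group itself.

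Other epidermal lists were mixed. The expressed genes of these lists that were higher in the SKP library mostly met the filter there only, which fixes their direction, so counts with no filter are given too (background 12.6% higher and 6.22% lower). Of 48 further envelope genes, 20 had no read and 10 were expressed, of which 5 were higher in the SKP library (Lce3c, Crct1, Cst6, Dmkn and S100a8) and 0 were lower. All 5 met the filter in the SKP library only, and with no filter 10 of the 28 genes with a read were higher and 0 lower. The broadly expressed members S100a11 (732 RPKM against 1318) and Anxa1 (254 against 182) were under 2-fold apart, and Sbsn, S100a10 and Tgm2 were not called either. Of 11 expressed genes of barrier lipids and proteases, 3 were higher, the filaggrin-processing protease gene Asprv1 and the kallikrein protease genes Klk6 and Klk7 (6 of 18 with no filter). Klk6 and Klk7 had 88 and 75 SKP reads and 0 fibroblast reads. In this list 1 gene, the glucosylceramide synthase gene Ugcg, was lower (18.4 RPKM against 54.3), and 7 were neither, among them the sphingomyelinase gene Smpd1 (33.6 against 38.9). Of 8 expressed hemidesmosome and basal adhesion genes 1 was higher, the laminin receptor subunit gene Itga6 (25.5 RPKM against 1.55), and 1 was lower, Itga3 (1.11 against 2.22), while Plec and Cd151 were under 2-fold apart. With no filter 4 of the 12 were higher, Itga6, Col17a1, Lama3 and Lamb3, and 1 was lower. A further list held epithelial regulators together with other epithelial genes that are not regulators, such as Aqp3, Ly6d and Lgals7. Of its 24 genes with a read 9 were higher and 3 lower with no filter. Of the 9 expressed, 5 were higher (Tfap2c, Hopx, Lgals7, Ly6d and Aqp3), among them the AP-2 gamma gene Tfap2c at 5.09 RPKM against 0.0571, 2 were lower (Spint2 and Fgfr2) and 2 were neither (Klf5 and Prdm1).

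Among other epithelial junction genes 0 of 6 expressed were called toward the SKP library, 2 were called toward the fibroblast library and 4 were not called (Cldn12, F11r, Cxadr and Pvrl1). The 2 called, Cdh3 and Llgl2, met the filter in the fibroblast library only, which fixes their direction. With no filter 5 of the 26 genes with a read were higher in the SKP library and 4 were lower (background 12.6% and 6.22%). Cdh3, which encodes P-cadherin of basal keratinocytes and hair germ, stood at 0.372 RPKM from 28 SKP reads and at 10.7 RPKM from 782 fibroblast reads, 28.8-fold higher in the fibroblast library (19.7 to 43.6). Llgl2, a polarity gene, stood at 0.524 against 1.59. Cdh1, which encodes E-cadherin, was below the filter with 48 SKP reads and 10 fibroblast reads (0.574 RPKM against 0.123, 4.66-fold, 2.33 to 10.3). The keratins of simple epithelia also divided: Krt18 was higher in the SKP library (3.84 RPKM against 0.582), and Krt7 (0.428 against 1.46) and Krt19 (0.105 against 1.62) were higher in the fibroblast library. Krt18 met the filter in the SKP library only and Krt7 and Krt19 in the fibroblast library only, which fixes their directions. Krt8 was below the filter, with 15 SKP reads against 3 (4.86-fold, 1.37 to 26.2). With no filter 2 of the 6 were higher in the SKP library and 2 were lower. Of 15 expressed genes in a list of junction genes found in mesenchymal and other cells, Gja1, Cgnl1 and Cdh5 were called toward the SKP library and Cdh2, Pvrl2 and Vcl toward the fibroblast library, and 9 were not called, Cdh11 (202 RPKM against 322) and Ctnnb1 (197 against 137) at the highest levels. Cdh5 encodes VE-cadherin of the endothelium and is also the 1 called gene of the endothelial list. The hair shaft and sheath list had no read for 14 of 20 genes, and 0 of the others were expressed.

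**Figure D3:**
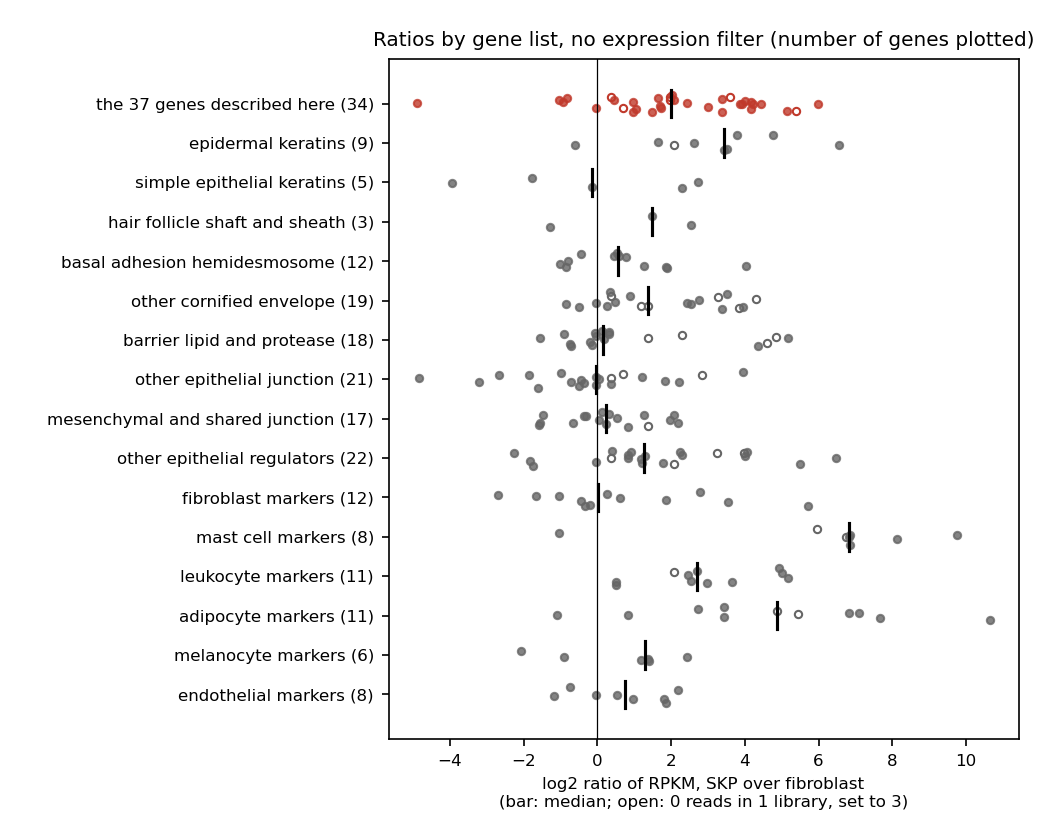
Log2 ratio of SKP over fibroblast RPKM for the 37 genes (red) and for each gene list (grey), with no expression filter, each point 1 gene, the bar the median, and open points genes with 0 reads in 1 library, set to 3. The group's median of 1.99 lies between those of the epidermal keratins (3.44) and of the other epithelial junction genes (-0.04). The medians of mast cell (6.84), adipocyte (4.88) and leukocyte (2.70) markers also lie above it, and those of the remaining lists lie below it.

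Both libraries were mesenchymal by their leading markers: all 12 fibroblast markers were expressed, at 12.98 to 2161 RPKM in the SKP library and 1.11 to 4474 RPKM in the fibroblast library, and Col1a1 (2161 against 4474) was far above every gene of the group. Of these 12, the SKP library had more of 4 (Col3a1, Dcn, Lum and Fap), the fibroblast library more of 3 (Col1a1, Thy1 and S100a4), and 5 were not called (Col1a2, Vim, Pdgfra, Pdgfrb and Fn1). Markers of mast cells, leukocytes and adipocytes were also mostly higher in the SKP library, while endothelial and melanocyte markers were mostly below the filter. The expressed markers that met the filter in the SKP library only numbered 7 for mast cells, 4 for leukocytes (Cd14, which was not called, among them) and 8 for adipocytes, which fixes their direction. With no filter, 7 of 9 mast cell, 9 of 11 leukocyte and 9 of 11 adipocyte markers with a read were higher, against 12.6% of all genes. In the SKP library 7 of 9 mast cell markers were higher, led by the tryptase genes Tpsab1 and Tpsb2 (68.1 and 43.2 RPKM against 0.593 and 0.0499) and the chymase gene Cma1 (13.8 against 0.05). The list summed to 151 RPKM against 0.834, and Cpa3, Mcpt4 and Fcer1a had 0 fibroblast reads. Of 13 leukocyte markers 5 were higher (Lyz2, Cd68, Fcer1g, Ctss and Fcgr3) and Cd14 was neither, with a sum of 32.96 RPKM against 5.33. There Emr1 had 0 fibroblast reads, and Cd207 and Cd3e had none in either library. Of 11 adipocyte markers 9 were higher, Fabp4, Adipoq and Cidec among them, 1, Lpl, was lower and 1, Pparg, was neither, with a sum of 549 against 353, and Lep and Retn had 0 fibroblast reads. Of 8 endothelial markers 1, Cdh5, was higher, with a sum of 5.24 against 2.28. Of 8 melanocyte markers 1, Mitf, was higher and 1, Sox10, was lower, with a sum of 20.6 against 8.91. Cdh5 met the filter in the SKP library only and Sox10 in the fibroblast library only, which fixes their directions. The part of other cell types in the epidermal values was not tested. In bulk RNA a larger number of epidermal cells and more epidermal RNA per cell cannot be told apart.

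The deposited coverage, how much of a gene's length has reads, was set beside the share that equally many 49-base reads would cover if placed at random. In the SKP library Sprr1a was covered over 97.5% of its length, Ivl over 83.2% against 96.4% for random placement, Dsp over 80.3% against 89.2%, and Dsc2 over 78.8% against 93.3%. Genes of low counts were near or under the random share. Pkp2 was covered over 18.6% against 18.4% in the SKP library and 98.1% against 99.7% in the fibroblast library. The 36 SKP reads of Lor covered 51.8% against 62.5%, and the 37 of Sprr1b covered 71.3% against 89.0%. Jup was covered over 68.8% in the SKP library and 73.6% in the fibroblast library where random placement would give nearly full coverage, and only 5.04% and 6.56% of genes with as high an expected coverage (95% or more) were covered as little or less. Sfn in the SKP library was similar, at 71.0% against 98.2%, and 5.84% of such genes were covered as little or less. The deposited length of Jup was 5009 bases and its longest protein-coding reference transcript 3205 bases, so its RPKM depends on the gene model. The length cancels in its ratio between the libraries, but the reads counted also depend on the model. The ratio under another model was not tested. Sprr1a and Sprr1b shared no 49-base window with each other or with another gene in the reference transcripts, and neither did Lor, Dsp, Dsc2, Jup, Pkp2, Perp or Krtdap.

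**Figure D4:**
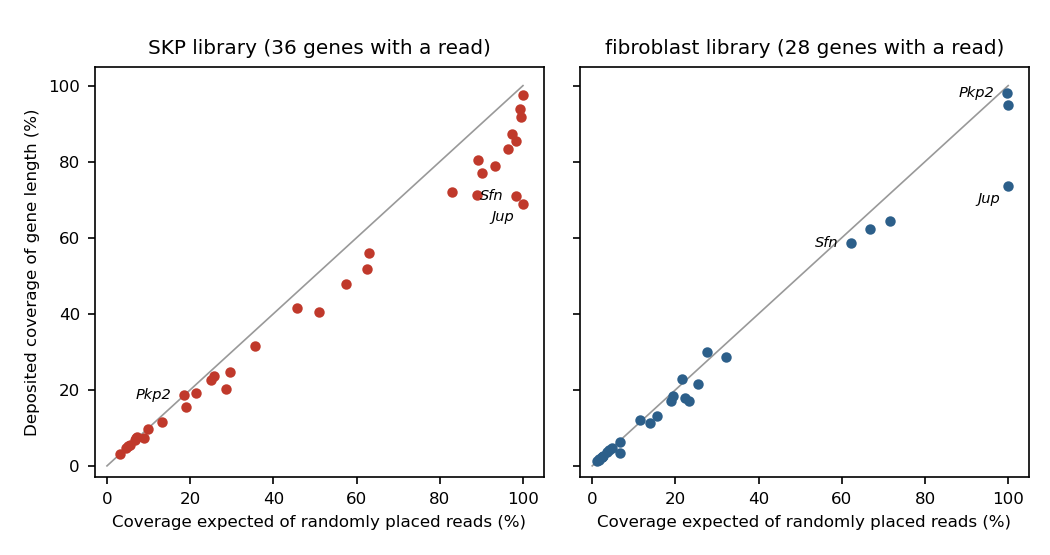
Deposited coverage of each gene (percent of its length) against the coverage expected of as many randomly placed 49-base reads, in the SKP library (left, 36 genes) and the fibroblast library (right, 28 genes); the line marks equality. Most points lie on or a little under the line, with Jup farthest below it in both libraries and Sfn next in the SKP library.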

How the data were processed

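Poly(A) RNA was sequenced in 1 fibroblast and 1 SKP library. The authors deposited a raw count of reads for each gene, with library totals of 18406244 (fibroblast) and 18949264 (SKP), per the file headers. Per the deposited mapping tables, 81.65% of 23374716 fibroblast reads and 85.13% of 22981183 SKP reads, each of 49 bases, mapped with 2 mismatches or fewer. In the deposited percent columns, 19.69% (fibroblast) and 21.69% (SKP) of the reads matched several positions. Since the library totals of counted reads are above the number of single-match reads, some others were counted, by a rule the labels do not state. The deposited RPKM is the count per kilobase of gene length and per 1000000 counted reads, and coverage in percent is deposited per gene. The authors' deposited comparison table gives log2 of fibroblast over SKP RPKM with an FDR and p-value per gene from a test that the labels do not name. Per the submitters' processing notes, mm9 was the build used. For the aligner, annotation and strandedness the labels give nothing, so overlapping and antisense genes could not be separated.

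Python 3.11.15 was used for the ratios (scipy 1.17.1, numpy 2.4.6, pandas 2.3.3). Their 95% exact (Clopper-Pearson) intervals came from the counts, intervals of single levels were exact Poisson intervals, and 0 reads were set to a floor of 3 where the other library had more than 3. Reads copied by PCR are counted more than once, and the intervals hold counting error alone. A single read on 1 kb equals 0.0528 RPKM (SKP) or 0.0543 RPKM (fibroblast). With 1 library per group no p-value was computed. Alternatives used edgeR 4.0.16 (TMM) and DESeq2 1.42.0 (size factors) in R 4.3.3 for scaling only, log2(RPKM + 1), other filters and a 4-fold threshold. The interval and call steps were tested on simulated data. The 15 comparison lists hold 253 entries for 252 genes (Cdh5 is in a pair of them), of which 46 had no read. Shared 49-base windows and exon overlaps came from GENCODE M21 transcripts. Every gene of the group is reported. From each list the rule names the expressed genes with the 2 highest SKP RPKM and the 2 largest ratios, Krt5, Krt14, Cdh1 and Col1a1, and every gene of a count of 5 or fewer. Any other gene named was picked with its values in view, and some list genes are not reported here. The group, lists and rules were chosen with earlier results of these data known.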

Additional observations from a re-analysis of the deposited data

How the results depend on the processing

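The count of 13 genes higher in the SKP library was 13 under edgeR TMM and DESeq2 size factors, which shifted all log2 ratios by -0.02 and 0.01, 10 on the log2(RPKM + 1) scale, 10 at 4-fold and 11 at a mean RPKM of 1 or more (without Lor and Pkp1). It was 23 with no filter and 2 (Sprr1a and Krtdap) at an RPKM of 5 or more, since fewer genes of the group reach that level. The count of 1 gene lower in the SKP library, Pkp2, was 1 under all 7 alternatives. Tgm1 and Pkp1 were no longer called on the log2(RPKM + 1) scale or at 4-fold, Cldn1 at 4-fold, and Lor on the log2(RPKM + 1) scale. Of the 34 log2 ratios, 34 stayed within their counting interval under either rescaling, and 23 left it on the log2(RPKM + 1) scale, which pulls low genes toward 0. Of 32 counts (higher and lower, in the group and in each list), 0 changed by over 1.5 times with TMM, 1 with DESeq2 size factors, 3 on the log2(RPKM + 1) scale, 2 with the mean filter, 8 at 4-fold, 12 at an RPKM of 5 and 14 with no filter. Itga3 was no longer called lower with DESeq2 size factors, on the log2(RPKM + 1) scale, at an RPKM of 5 or at 4-fold. At 4-fold, the genes lower in the SKP library went from 3 to 0 among mesenchymal junction genes and from 3 to 1 among fibroblast markers, and Ugcg and Lpl were no longer called. Of the 20 detected genes below the filter, 8 had 20 reads or more and missed the RPKM threshold. Among these 8, the SKP intervals of Trp63 (0.745 to 1.13) and Epcam (0.518 to 1.10) included an RPKM of 1. More depth could put these genes on either side of the threshold. The intervals of the others lay below it. Depth limits those of few reads, of which Tgm3, Calml3, Dsc1, Ocln, Cldn7, Elf3 and Ehf had 5 SKP reads or fewer. No paired analysis was possible because each group had 1 library, and for the same reason leaving out a replicate was not run.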

Other observations

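Exons of 6 genes of the group overlap those of an annotated gene on the opposite strand in the reference (GENCODE M21). The overlap takes 22% of exon bases in Ovol1, 7.31% in Elf3, 5.76% in Tgm1, 5.17% in Dsp, 3.99% in Dsg2 and 2.01% in Esrp1. The labels do not state whether the counts use strand, so reads of the overlapping genes cannot be told apart there. Among epithelial genes outside the group that were below the expression filter, Gjb2, a gap junction gene of the epidermis, had 7 SKP reads against 43 fibroblast reads, and Esrp2, the partner of Esrp1, had 7 against 24. Gjb2 and Esrp2 were chosen after their values were seen.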
